A study of Oryzias latipes with 2 samples.

Results

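Lh gonadotropes of the medaka (*Oryzias latipes*) pituitary whose transcripts include the thyrotropin beta subunit *tshba* were set against Lh gonadotropes in which no *tshba* transcript was counted. Lh gonadotropes are the cells the study assigned to that type, and in each sex they came from 1 cluster. A cell was called *tshba*-high where its *tshba* level exceeded 19.1 UMIs per 10000 (3.0 on the natural log of 1 plus that level), and *tshba*-0 where it had no *tshba* UMI. UMIs are unique molecular identifiers, each tagging 1 captured transcript. There were 295 *tshba*-high and 534 *tshba*-0 cells among 1430 Lh gonadotropes and 6396 cells in all. In the female library, 176 of 535 Lh gonadotropes were *tshba*-high (32.9%, 95% interval 28.9 to 37.1%) and 146 were *tshba*-0. In the male library, 119 of 895 were *tshba*-high (13.3%, 11.1 to 15.7%) and 388 were *tshba*-0. The remaining 213 female and 388 male Lh gonadotropes lay between the classes. The cells were chosen by their *tshba* level, which is therefore given below as a description, and the split between the classes is no finding.

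The study asked, cell by cell, which hormone genes the medaka pituitary expresses. From single cells it reported cells of both sexes with *tshba* and *lhb*, the luteinizing hormone beta subunit gene, each above a cut-off. By fluorescence in situ hybridization it did not find these transcripts in the same cell. The classes here set no cut-off for *lhb*, so that their counts are not those of the study. The study's libraries were 1 of pooled pituitaries from 24 females and 1 from 23 males, adults of about 8 months. All fish were of the d-rR *lhb*:GFP line, in which the *lhb* promoter drives a green fluorescent protein, so that both classes carry the transgene. Each sex is 1 library, so that the cells are not replicates and animals cannot be told apart. No p-value is given, and a difference between the sexes cannot be told apart from a difference between the libraries. The intervals are exact 95% intervals (Clopper-Pearson for shares, Poisson for sums, and conditional binomial for folds) and cover counting error only.

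Pituitary glycoprotein hormones are dimers of a shared alpha subunit, encoded by *cga*, and a beta subunit that gives the hormone its identity. The beta subunits of luteinizing, follicle-stimulating and thyroid-stimulating hormone are encoded by *lhb*, *fshb* and *tshba*. Tsh is the product of thyrotropes, and a fish gonadotrope usually makes 1 of the gonadotropins. Nr5a1 (Sf1) is a transcription factor of gonadotropes in mammals, and the fish gene *cyp19b* encodes brain aromatase, which makes estrogens from androgens.

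The libraries held 11750195 UMIs from the female and 17691130 from the male pituitaries. The libraries shared 16 cell barcodes, 1 of them among Lh gonadotropes. *lhb*, the defining marker, was highest in Lh gonadotropes of all types in both libraries. The *lhb* level was 376 UMIs per 10000 in female Lh gonadotropes and 689.9 in male ones, against 21.5 and 168 in Fsh gonadotropes and 11.3 and 14.8 in lactotropes. The nearest types were gonadotrope-like cells, with 148 and 238, and thyrotropes, with 107 and 209.8. Thyrotropes above the *tshba* cut-off had a summed *lhb* level of 42.4 in females and 150 in males, with cell medians of 11.9 and 18.3. *nr5a1b* was higher in gonadotrope-like cells, at 24.4 in females and 21.8 in males, than in Lh gonadotropes, at 20.4 and 12.04. The *tshba* level was 34.3 in female and 10.5 in male Lh gonadotropes, against 442 and 710 in thyrotropes. Gonadotrope-like cells had 11.8 and 12.2, and the *cga*-expressing cells, another type of the study, had 3.26 and 21.1. In lactotropes it was 1.24 in the female and 3.74 in the male library.

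The *tshba*-high cells carried far less *tshba* than thyrotropes. In female *tshba*-high cells the level ranged from 19.5 to 665 UMIs per 10000, with a median of 49.2. In male ones it ranged from 19.3 to 255, with a median of 37.4. The lowest level inside the rule was 19.5 in the female and 19.3 in the male library, and the highest outside it was 19.0 in both. Within 5 UMIs per 10000 of the cut-off lay 22 female cells inside and 16 outside, and 19 male cells inside and 29 outside. Thyrotropes above the same cut-off, 37 of 69 in females and 43 of 46 in males, had a summed *tshba* level of 773 and 825. Only 4 female and 0 male *tshba*-high Lh gonadotropes reached the median level of these thyrotropes, which was 228 in females and 362 in males.

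The *tshba*-high cells were also the deeper cells. Their median total was 5609 UMIs in females and 6197 in males, against 3382 and 3949 in *tshba*-0 cells. The comparisons below therefore used pairs of 1 *tshba*-high and 1 *tshba*-0 cell with totals within 0.1 on the natural log scale. This gave 105 pairs in each library. The median totals of the pairs were 4291 and 3942 UMIs in females (*tshba*-high and *tshba*-0), and 5875 and 5890 in males. The 71 female and 14 male *tshba*-high cells left without a partner had median totals of 7768 and 14160.5 UMIs, with ranges of 5020 to 33390 and of 230 to 18954 UMIs.

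*lhb* itself was lower in *tshba*-high cells of both libraries. In females its summed level was 135 UMIs per 10000 in *tshba*-high and 400.2 in *tshba*-0 cells, a fold of 0.336 (0.327 to 0.346). The median cell had 40.2 against 203, and *lhb* was the lower of the pair in the *tshba*-high cell in 75 of 105 pairs. In males the level was 610.4 in *tshba*-high and 832 in *tshba*-0 cells, a fold of 0.734 (0.724 to 0.743), with cell medians of 534 against 615 and a lower value in 66 of 105 pairs. The cells of the classes overlapped widely in both sexes. *lhb* exceeded 4.0 on the natural log scale in 50 *tshba*-high (47.6%, 37.8 to 57.6%) and 74 *tshba*-0 female cells (70.5%, 60.8 to 79.0%). In males it did so in 86 (81.9%, 73.2 to 88.7%) and 94 cells (89.5%, 82.0 to 94.7%).

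**Figure D1:**
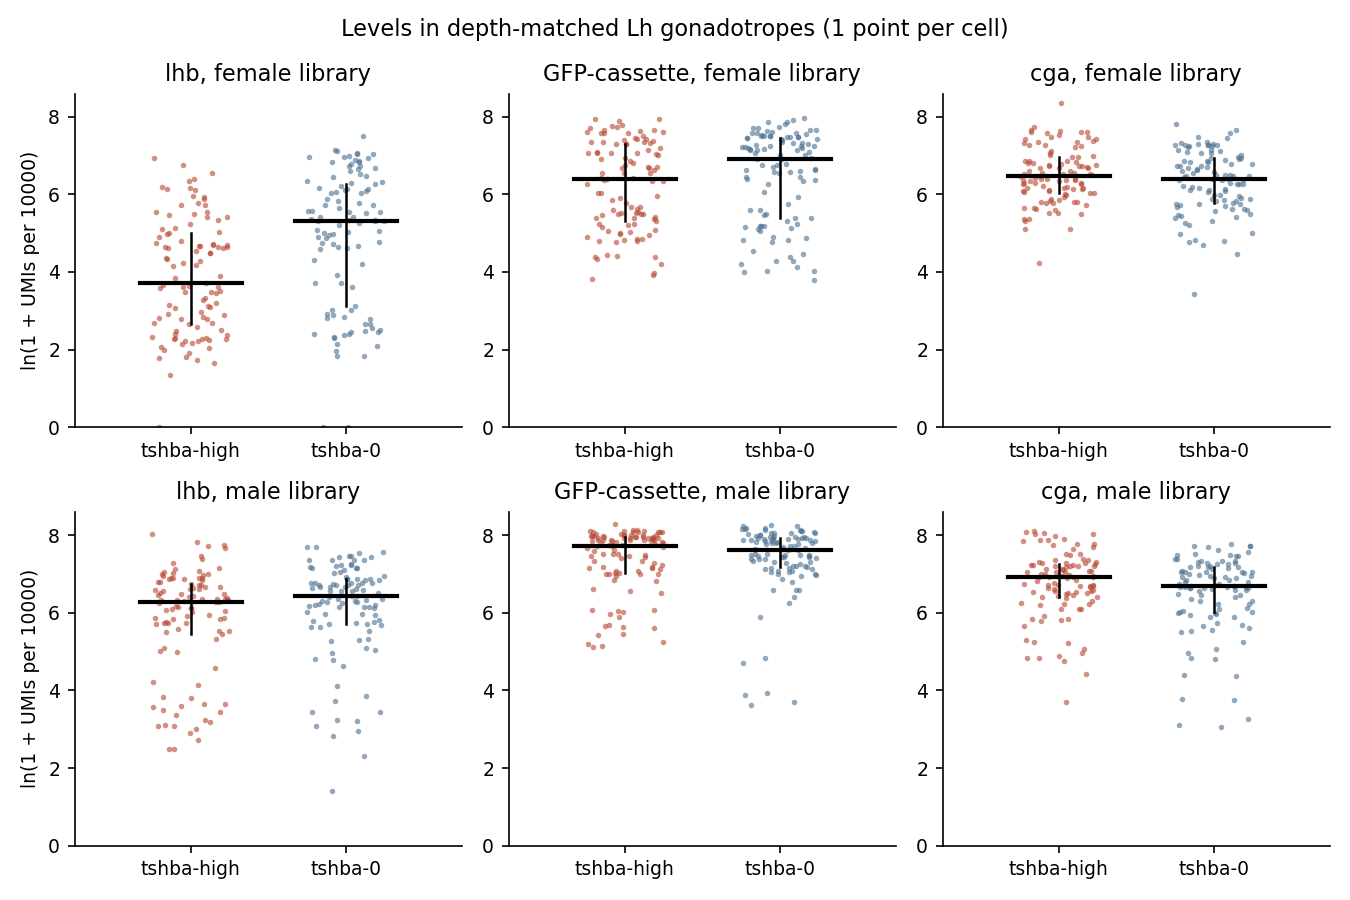
Levels of *lhb*, the GFP cassette and *cga* in the depth-matched Lh gonadotropes, as the natural log of 1 plus UMIs per 10000, with *tshba*-high cells left and *tshba*-0 cells right and 1 point per cell (105 per class and library). Horizontal bars are medians and vertical bars run from the lower to the upper quartile; the median *lhb* level is 40.2 against 203 UMIs per 10000 in females and 534 against 615 in males.

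The size of the *lhb* difference depended on depth, and in males so did its direction. Without matching, the fold was 0.618 in females and 0.969 in males, and with cells thinned to 2200 UMIs it was 0.561 and 1.03. Thinning left out shallower cells, which were 11 of the *tshba*-high and 26 of the *tshba*-0 female cells, and 9 and 41 male cells. The classes were therefore also compared within ranges of total UMIs, which were set after the data had been seen. In females the *tshba*-high level was lower in each range: 156 against 276 below 3500 UMIs (33 and 76 cells), 87.2 against 307 from 3500 to 6000 UMIs (67 and 50 cells), and 311 against 649 above 6000 UMIs (76 and 20 cells). In males it was higher below 3500 UMIs, at 864 against 506 (23 and 149 cells). It was lower from 3500 to 6000 UMIs, at 424 against 527 (33 and 170 cells), and above 6000 UMIs, at 663 against 927 (63 and 69 cells).

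The summed level of the reporter differed less than that of *lhb* in the matched cells, and its direction depended on depth in both libraries. The GFP cassette, whose promoter is that of *lhb*, stood at 923 UMIs per 10000 in *tshba*-high and 1186 in *tshba*-0 female cells, a fold of 0.779 (0.769 to 0.788). In males it stood at 2239 and 2142, a fold of 1.05 (1.04 to 1.05). Per 100 GFP UMIs, *tshba*-high cells had 14.6 *lhb* UMIs in females and 27.3 in males, against 33.8 and 38.8 in *tshba*-0 cells. When the pairs were also matched on the GFP cassette, an alternative added after the data had been seen, the *lhb* fold was 0.400 in females and 0.741 in males.

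The shared subunit was slightly higher in the matched *tshba*-high cells. *cga* reached 848 in *tshba*-high and 800.2 UMIs per 10000 in *tshba*-0 female cells, a fold of 1.06 (1.05 to 1.08). In males it reached 1143 and 1023, a fold of 1.12 (1.11 to 1.13). It was higher in the *tshba*-high cell in 58 of 105 female and 61 of 105 male pairs. Without matching on depth, the *cga* fold was 1.49 in females and 1.48 in males. Over the same ranges of total UMIs, from low to high, it was 1.66, 0.978 and 1.19 in females and 2.29, 1.19 and 1.12 in males.

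The other beta subunit, *fshb*, differed in opposite directions. In females it had 13.1 UMIs per 10000 in *tshba*-high and 26.6 in *tshba*-0 cells, a fold of 0.492 (0.445 to 0.543). In males it had 17.5 and 13.7, a fold of 1.28 (1.17 to 1.40). In females 1 cell gave 16.2% of the *fshb* UMIs in the *tshba*-high class and 1 cell 19.2% in the *tshba*-0 class, and without the top cell of each class the fold was 0.510 (0.457 to 0.568). In females with *lhb* above 4.0 on the natural log scale in every cell, the fold was 0.966. *fshb* exceeded that same level in 6 *tshba*-high and 13 *tshba*-0 female cells, and in 11 and 8 male cells.

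*cyp19b* was lower in *tshba*-high cells of both libraries. It had 6.29 UMIs per 10000 in *tshba*-high and 8.47 in *tshba*-0 female cells, a fold of 0.742 (0.635 to 0.866). In males it had 1.61 and 4.24, a fold of 0.379 (0.299 to 0.478), the lowest among the 897 genes tested there. The *tshba*-high cell was the lower one in 55 of 105 female pairs, with 49 higher, and in 69 male pairs, with 27 higher. Unlike *lhb* in males, *cyp19b* kept its direction in every range of total UMIs in both libraries. From low to high totals its folds were 0.44, 0.90 and 0.71 in females and 0.33, 0.47 and 0.40 in males. *nr5a1b* went opposite ways in the matched cells, with 24.2 in *tshba*-high and 19.8 in *tshba*-0 female cells (fold 1.22, 1.12 to 1.33), and 9.69 and 11.2 in male cells (fold 0.866, 0.776 to 0.967). Its female direction depended on matching: without it the folds were 0.943 (0.878 to 1.01) in females and 0.592 (0.544 to 0.643) in males.

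**Figure D2:**
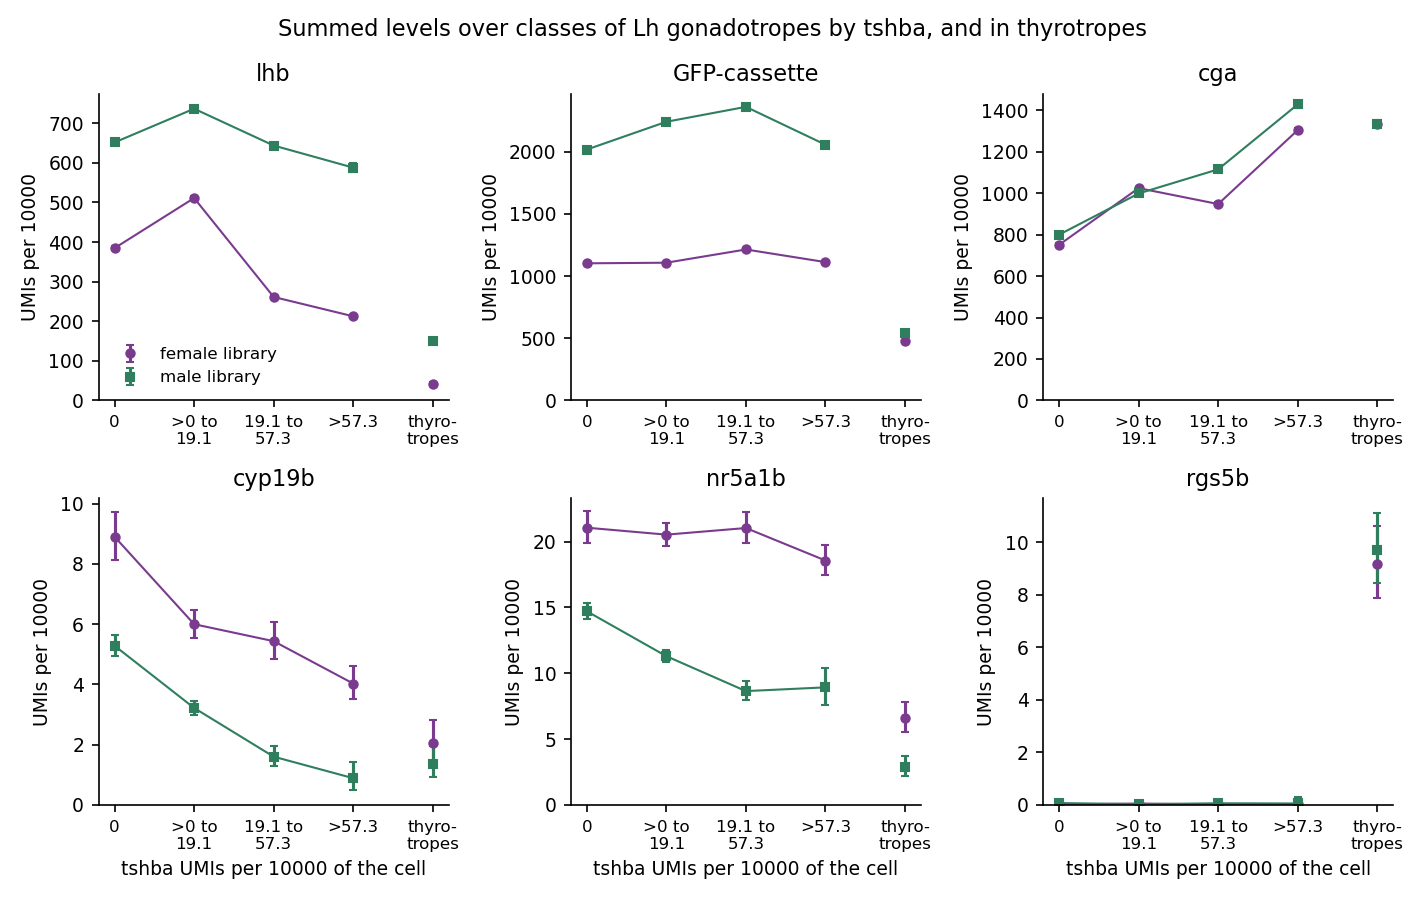
Summed levels in UMIs per 10000 (linear axes from 0, bars are exact 95% Poisson intervals) over Lh gonadotropes with 0 *tshba*, above 0 to 19.1, above 19.1 to 57.3, and above 57.3 UMIs per 10000, with thyrotropes above the cut-off at the right. *cyp19b* is lower at each further step in both libraries, from 8.90 at 0 down to 4.03 above 57.3 in females and 5.28 down to 0.89 in males, and *rgs5b* is near 0 outside thyrotropes. The steps are not matched on depth, and *cyp19b* was also lower in deeper cells within the *tshba*-0 class.

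Over all Lh gonadotropes, including those between the classes, levels were read by step of *tshba*, with no matching on depth. The median totals over the 4 steps were 3382, 4771, 5458.5 and 5609 UMIs in females and 3949, 5463.5, 6358 and 5017.5 in males, and the part of depth in these values was not tested. *cyp19b* had 8.90, 6.0, 5.43 and 4.03 UMIs per 10000 over the steps in females and 5.28, 3.22, 1.6 and 0.89 in males. It was thus lower at each further step in both libraries. Within *tshba*-0 cells alone, *cyp19b* was also lower in deeper cells. Over the ranges of total UMIs used above, from low to high, it had 11.5, 9.67 and 4.28 in females. In males it had 8.38, 5.65 and 2.59. *cga* had 751, 1025, 948 and 1305 in females and 799.8, 999, 1115 and 1429 in males, and the highest step was near the 1335 of thyrotropes. *lhb* had its highest summed level at the second step: 385, 511, 261 and 212 in females and 652, 737, 644 and 588 in males. The median cell had 174, 184, 95.2 and 102 in females and 467, 599, 548 and 497 in males. Cells of the second step had a median of 2 *tshba* UMIs in both libraries. A *tshba* UMI was also counted in 51.0% of female and 38.5% of male lactotropes. *nr5a1b* stayed between 18.6 and 21.1 in females, and had 14.7, 11.3, 8.65 and 8.93 in males.

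Thyrotrope genes other than *tshba* did not come with it as a group. *rgs5b*, a regulator of G protein signalling, had 1 UMI in *tshba*-high and 1 in *tshba*-0 matched female cells, and 4 and 4 in male cells. The 4 deposited thyrotrope markers beside *tshba* had a summed level of 0.48 in *tshba*-high and 0.48 in *tshba*-0 female cells (fold 0.99, 0.52 to 1.87). In males they had 0.63 and 0.66 (fold 0.96, 0.60 to 1.52). The ratio of these genes to *tshba* was added after the data had been seen, over every member of both lists. Its denominator also chose the *tshba*-high cells, and the genes were chosen as thyrotrope genes from these same data. The ratio is therefore a description, and a thyrotrope source of the *tshba* was not tested. In thyrotropes above the cut-off, *rgs5b* was counted in 19 of 37 female and 33 of 43 male cells. Against *tshba* itself, *rgs5b* had 11.9 UMIs per 1000 *tshba* UMIs in female thyrotropes above the cut-off. In all 176 female *tshba*-high Lh gonadotropes it had 0.221 (0.027 to 0.800), that is 2 UMIs where the thyrotrope ratio would give 107. In males it had 1.29 (0.418 to 3.0) per 1000 against 11.8 in thyrotropes, that is 5 UMIs against 45.7 at the thyrotrope ratio. *ccl25b*, a chemokine, had 4 UMIs where that ratio gives 28.9 in females, and 1 against 11.3 in males.

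Not every thyrotrope gene was near 0. Of the 6 genes of the deposited and type-leading lists, 4 were below their thyrotrope ratio to *tshba* in both libraries with intervals that do not reach it. The other 2, which have no name in the files, had 53 and 18 UMIs in female *tshba*-high cells against 62.1 and 27.7 at the thyrotrope ratio, and 41 and 19 UMIs in male ones against 34.2 and 11.3. Both genes were also present in *tshba*-0 cells, with 25 and 13 UMIs in females and 71 and 48 in males. Since the classes differ in total UMIs, these counts are to be read as levels. Per 10000 UMIs the first gene had 0.465 in *tshba*-high and 0.452 in *tshba*-0 female cells, and 0.498 and 0.420 in male cells. The second had 0.158 and 0.235 in female cells, and 0.231 and 0.284 in male cells. Over all 6 genes, female *tshba*-high cells had 8.86 UMIs per 1000 *tshba* UMIs (7.02 to 11.02) against 40.1 in thyrotropes, and male ones 17.5 (13.6 to 22.2) against 36.2. The summed level was 0.701 UMIs per 10000 in *tshba*-high and 0.705 in *tshba*-0 female cells, and 0.826 and 0.799 in male cells, before matching.

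**Figure D3:**
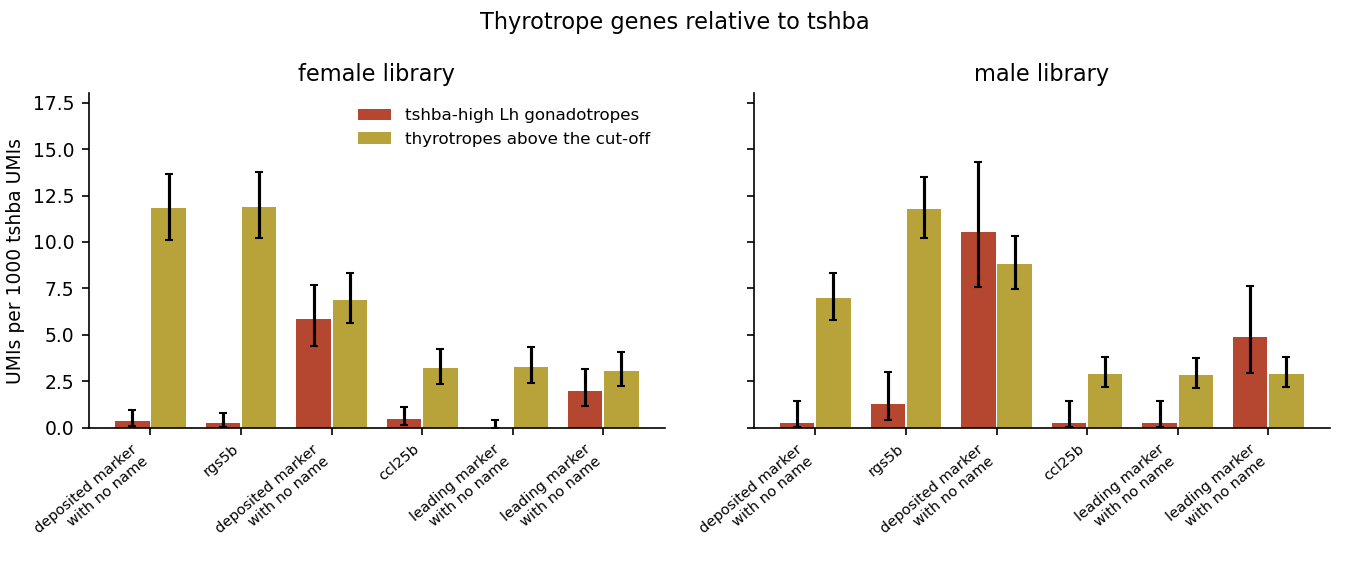
UMIs of each of the 6 thyrotrope genes per 1000 *tshba* UMIs, in *tshba*-high Lh gonadotropes (left bar of each pair) and in thyrotropes above the cut-off (right bar), with exact 95% Poisson intervals on the gene's count. The cells were chosen by *tshba*, the denominator, so that the ratios are a description. *rgs5b* stands at 0.221 against 11.9 in females and at 1.29 against 11.8 in males, whereas the intervals of 2 genes with no name reach or exceed the thyrotrope value.

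The exonic share of *tshba* differed between the cell types by less than the counting error. Exonic UMIs made up 99.3% (99.1 to 99.5%) of *tshba* UMIs in female *tshba*-high Lh gonadotropes, against 99.3% (99.2 to 99.5%) in female thyrotropes above the cut-off. In males the shares were 99.7% (99.5 to 99.9%) and 99.7% (99.6 to 99.8%). Intronic UMIs were 7 of 8863 in *tshba*-high Lh gonadotropes and 12 of 14707 in thyrotropes of females, and 2 of 3854 and 2 of 17428 in males. For *lhb*, intronic UMIs were 0.131% in *tshba*-high (0.091 to 0.183%) and 0.313% in *tshba*-0 female cells (0.241 to 0.399%). In males they were 0.061% (0.041 to 0.086%) and 0.213% (0.186 to 0.242%). The intronic share of *cga* was also lower in *tshba*-high cells, at 0.543% against 0.877% in females and 0.616% against 0.803% in males. Cells between the classes had 0.153% for *lhb* in females and 0.129% in males. These shares are over all cells of each class, with no matching on depth, and the part of depth in them was not tested. Their totals are the sums of exonic, intronic and spanning UMIs, which differ somewhat from the whole counts. For *tshba* in female *tshba*-high cells the sum was 8863 against 9034, and for *cga* in male *tshba*-0 cells 135418 against 135067.

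Across the transcriptome few genes differed by 1.5-fold in the same direction in both libraries. Genes with at least 100 UMIs in both classes together were compared, and a gene was counted where its level differed by at least 1.5-fold. In females 39 of 887 genes (4.40%) were higher in *tshba*-high cells and 14 (1.58%) were lower. In males 29 of 897 (3.23%) were higher and 31 (3.46%) were lower. Of 795 genes compared in both, 4 (0.503%) were higher and 4 (0.503%) were lower in both. The direction was shared by 453 of the 795 (57.0%), and over these genes, which are not independent, Pearson's r of the log2 folds was 0.32 and Spearman's rho 0.25. Of the genes past 1.5-fold in 1 library and compared in the other, 30 of 42 from the female and 36 of 48 from the male library had the same direction in the other. The median log2 fold was 0.08 in females and -0.0011 in males.

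**Figure D4:**
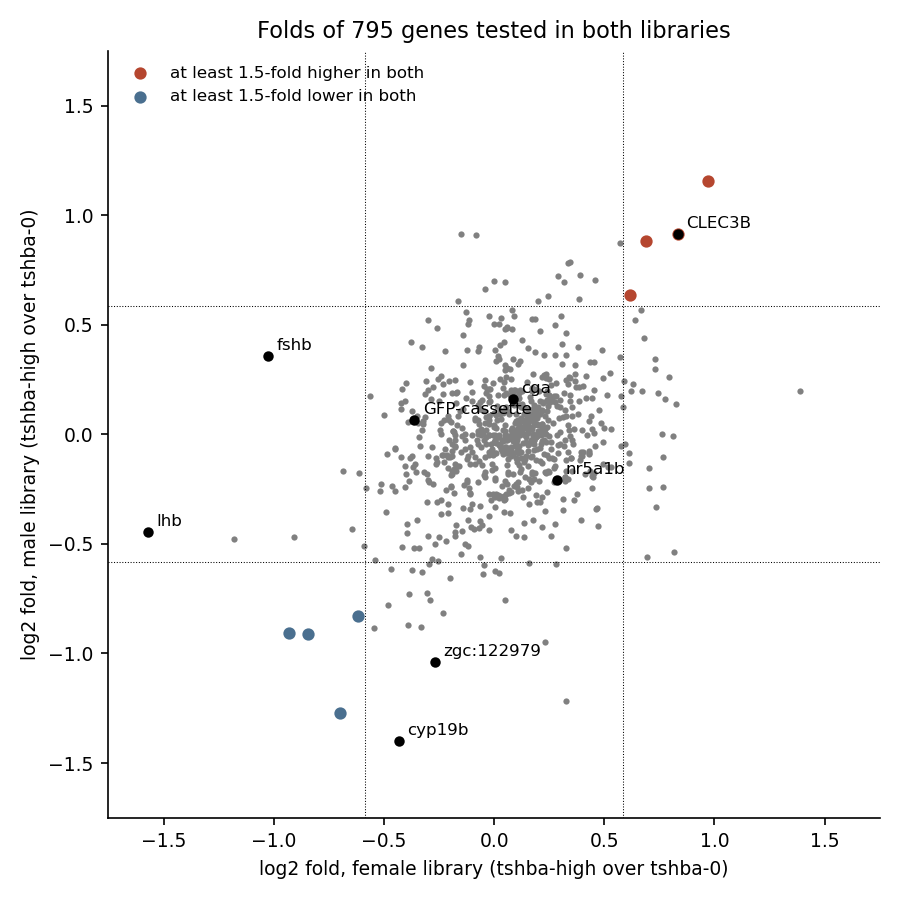
Log2 fold of *tshba*-high over *tshba*-0 cells in the female (x axis) and male library (y axis), 1 point per gene compared in both (795). Dotted lines mark 1.5-fold; 4 genes lie beyond them in the upper right corner, 4 in the lower left, and *lhb* is the lowest in females.

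Among the 4 genes higher in both libraries, 1 has a name. *CLEC3B*, a gene of the C-type lectin family, had 2.90 UMIs per 10000 in *tshba*-high and 1.63 in *tshba*-0 female cells, a fold of 1.78 (1.33 to 2.40). In males it had 1.09 and 0.578, a fold of 1.88 (1.24 to 2.90). It is also a marker of the *cga*-expressing cells, another type the study set apart, where it stood at 15.1 in both libraries. The 5 deposited markers of those cells summed to a fold of 0.984 (0.934 to 1.04) in females and 0.924 (0.877 to 0.974) in males. Only 3 of them in females and 2 in males had enough UMIs to be compared. Among those, *CLEC3B* was the only one past 1.5-fold. With cells thinned, its male fold was 1.24 (0.757 to 1.98), and without matching it was 1.49. In females 1 cell gave 15.7% of its UMIs in the *tshba*-high class and 1 cell 25.7% in the *tshba*-0 class. The gene with the largest folds shared by both libraries, ENSORLG00000004433, had 3.49 in *tshba*-high and 1.78 in *tshba*-0 female cells (fold 1.96, 1.49 to 2.59), and 2.76 and 1.24 in males (fold 2.23, 1.70 to 2.96). Of all types this gene was highest in the *cga*-expressing cells, at 5.22 in females and 4.57 in males, against 2.23 and 2.02 in Lh gonadotropes. Without matching its folds were 1.37 and 1.4, below 1.5. ENSORLG00000028050 had folds of 1.61 in females and 1.84 in males.

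The 4 genes lower in both libraries have no names. ENSORLG00000006559 had 1.39 UMIs per 10000 in *tshba*-high and 2.64 in *tshba*-0 female cells (fold 0.525, 0.382 to 0.717), and 1.39 and 2.60 in males (fold 0.533, 0.406 to 0.695). ENSORLG00000029633 had folds of 0.556 in females and 0.531 in males. Genes with names that were lower in 1 library included *zgc:122979* (fold 0.487 in males and 0.829 in females) and *spidr* (0.482 in males, and 0.621 from 75 UMIs in females).

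Genes of other cell types were counted in Lh gonadotropes at low level, and some of them differed. Prolactin (*prl*) had a fold of 0.894 in females and 1.06 in males, and growth hormone (*gh*) 1.0 and 0.984. *pomca*, the precursor of corticotropin and melanotropin, had 0.746 and 1.08, and somatolactin (*sl*) 0.901 in females and 1.89 in males (73 and 38 UMIs, 1.26 to 2.87). Whole lists of deposited markers did not always follow the hormone. The lactotrope list summed to a fold of 0.981 (0.895 to 1.08) in females and 1.19 (1.1 to 1.28) in males, where 2 of its 3 compared genes were past 1.5-fold higher. The somatolactotrope list summed to 1.35 (1.16 to 1.57) in females and 1.05 (0.855 to 1.29) in males. The Fsh gonadotrope list, which includes *fshb*, summed to 0.681 (0.639 to 0.724) in females and 0.993 (0.927 to 1.06) in males. The list of uncharacterized cells, which includes *cyp19b*, summed to 0.80 (0.718 to 0.891) and 0.722 (0.642 to 0.812). In females *cyp19b* gave 290 of its 609 UMIs in *tshba*-high and 385 of 750 in *tshba*-0 cells. In males it gave 102 of 502 and 264 of 682, so that this sum in part repeats the *cyp19b* difference above. By level, *cyp19b* was highest in Fsh gonadotropes of all types, at 15.3 in females and 12.8 in males. Uncharacterized cells had 1.48 and 8.05. The 5 deposited red blood cell markers summed to a fold of 1.07 (0.84 to 1.37) in females and 1.34 (1.1 to 1.64) in males. The 5 deposited Lh gonadotrope markers summed to 0.80 and 1.0, and the 5 of gonadotrope-like cells to 1.11 and 0.98. The Lh gonadotrope list includes *lhb*, the GFP cassette and *cga*, and its sum mostly repeats their values above. These gave 6210, 42580 and 39137 of its 90011 UMIs in female *tshba*-high cells. In male ones they gave 38755, 142130 and 72568 of 255992. The part of RNA from other cells in these values was not tested.

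The same split was made in gonadotrope-like cells, a neighbouring type that the study set apart, with 83 female and 64 male pairs. *lhb* was lower in the *tshba*-high ones there too, at 77.5 against 206 UMIs per 10000 in females (fold 0.376, 0.359 to 0.392) and 136 against 329 in males (fold 0.412, 0.397 to 0.428). *cyp19b* had folds of 0.799 and 0.614. The GFP cassette was lower as well, with folds of 0.724 and 0.548. *cga* had folds of 1.16 in females and 0.884 in males, and *CLEC3B*, at 0.383 and 3.18, differed in opposite directions. *nr5a1b* had folds of 0.976 (0.888 to 1.07) in females and 1.15 (1.03 to 1.29) in males, the reverse of its directions in Lh gonadotropes. *fshb* had folds of 0.784 (0.737 to 0.834) and 1.07 (0.918 to 1.24).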

How the data were processed

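Single cells from pooled pituitaries of each sex were captured with the 10x Chromium 3′ kit, version 2. The authors deposited UMI counts per gene and cell (whole numbers, not normalized), separate counts of exonic, intronic and spanning UMIs, and a cell annotation. The submitters' processing notes name Cell Ranger and Seurat. The genome build, the gene annotation and the reference sequence used for the GFP cassette were not given in the sources used here. Before deposit the authors removed the cells with the highest doublet scores, a small share set from 10x loading data. No caller was run here, and whether doublets remain was not tested. The deposited marker tables hold the authors' own comparisons, of which only gene names and, from the male table, the marker lists by cell type were used.

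Levels are UMIs per 10000 of the summed UMIs. Pairs were formed by minimal total distance within a caliper of 0.1 (natural log of total UMIs). The fold calculation was run on simulated counts with planted changes, drawn as sums per class with no spread between cells. How well the 1.5-fold limit holds where cells differ was therefore not tested. Analyses used Python 3.11.15, numpy 2.4.6, scipy 1.17.1, pandas 2.3.3 and matplotlib 3.10.9. Each library was analysed alone. The cells, gene lists and tests were chosen with earlier results of these data known.

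Genes named are the hormone genes, members of the lists, genes beyond 1.5-fold in both libraries (the first 12 in each direction, and the first 2 where unnamed) and the 5 largest folds per library. Most genes carry only an identifier. Names came from the study's primer table and the marker tables (63 genes), and 9 of 328 list symbols matched, so that most lists could not be read. Type-leading genes had at least 50 UMIs in a type and at least 3 times the level of every other type, in both libraries. Lh gonadotropes were left out of this choice. Other settings (14, and 2 added after the data had been seen) are given in the closing section.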

Additional observations from a re-analysis of the deposited data

Results flagged for a closer look

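The fold of *fshb*, the beta subunit of follicle-stimulating hormone, lay on opposite sides of 1 in the libraries. It was 0.492 in females and 1.28 in males, with counting intervals that do not overlap (0.445 to 0.543 and 1.17 to 1.40). The difference between the sexes was not tested, since each sex is 1 library. Over the alternatives the fold ranged from 0.323 to 0.966 in females and from 1.15 to 1.64 in males.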

How the results depend on the processing

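No paired analysis was possible because each sex has 1 library and the labels carry no replicate numbers. The female *lhb* fold of 0.336 became 0.618 without matching, 0.326 with a caliper of 0.05, 0.932 when cells were matched on *lhb* itself, 0.359 with the *tshba* cut-off lowered, 0.561 with cells thinned to 2200 UMIs, 0.311 without cells high in *fshb*, 0.400 when matched on the GFP cassette and 0.469 in cells with *lhb* only. The male fold of 0.734 became 0.969, 0.880, 0.788, 1.03, 0.768 and 0.787 under no matching, matching on *lhb*, the lowered cut-off, thinning, leaving out *fshb* cells and cells with *lhb* only. It became 0.763 with the cut-off raised, 0.721 with hormones left out of the totals and 0.745 without the deepest cells. Matching on *lhb*, within 0.5 on the natural log scale, narrows its difference by construction. For the others the cause was not tested. The number of genes compared in both libraries, 795 in the main setting, changed with the setting. The 4 genes higher in both became 9 of 1518 without matching (0 of them shared) and 7 of 959 with the cut-off lowered. They became 2 of 673 when matched on the GFP cassette and 2 of 537 in cells with *lhb* only. At a minimum of 30 UMIs they became 30 of 2635, and at 300 UMIs 0 of 270. Where the count stayed close, the genes did not always: 1 of the 4 was kept when cells were matched on *lhb*, and 2 after thinning or with the cut-off raised. The 4 genes lower in both became 63 of 1518 without matching and 17 of 575 after thinning. At a minimum of 30 UMIs they became 23 of 2635, and at 300 UMIs 1 of 270. *cyp19b* ranged from 0.535 to 0.769 in females and from 0.274 to 0.425 in males. *CLEC3B* ranged from 1.63 to 3.44 and from 1.24 to 3.22. Of 448 values for 16 genes, 25 lay on the other side of 1 from the reported fold, in 11 of the 32 folds, and in 8 of these the counting interval excluded 1. They belonged to *lhb* (1.03 after thinning), *pomca* (0.802 without matching) and *prl* in males, to the GFP cassette (up to 1.06), *nr5a1b* (down to 0.943), *prl* and *sl* in females, and to *gh* (down to 0.703 in females) and *rpl7* (down to 0.936 in females) in both libraries. No fold beyond 1.5 crossed 1 in any of them. Matching within the cluster, 1 of the settings, gave the main pairs by construction, since each sex has 1 cluster of Lh gonadotropes. Its values could therefore not move. Genes with fewer than 100 UMIs were left out of the reported counts.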
